A study of Homo sapiens with 12 samples.

Results

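The 10 immediate early genes EGR1, FOS, FOSL1, JUN, JUNB, IER2, IER3, DUSP1, ZFP36 and MYC were followed in H1299 cells after knockdown of EIF3G, in whole-lysate RNA and in RNA on polysomes. They were chosen by symbol, and all 10 were among the 16172 genes of the deposited table and among the 10605 genes tested (mean over all libraries of 1 TPM or more, TPM being transcripts per 1000000). H1299 is an established human cell line from a non-small-cell lung cancer. Cells of the control group received one control siRNA (siCtrl), and knockdown cells received an equimolar mix of 2 siRNAs against EIF3G (siEIF3G), a subunit of the initiation complex eIF3. Cells were harvested 72 h after transfection, 10% of the lysate was kept as input, and polysomal RNA was collected from a sucrose gradient of 10% to 50%. Each of the 4 groups (siCtrl input, siEIF3G input, siCtrl polysomal, siEIF3G polysomal) holds 3 libraries of poly(A)-selected RNA. The labels do not say whether the libraries of a group come from separate cultures, so the p-values measure only the spread between these libraries, which may be technical.

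Immediate early genes are transcribed within minutes of a growth factor, serum or stress signal, with no need for new protein synthesis. Kinases of the ERK and stress pathways act on factors already bound at their promoters, such as SRF with its ternary complex partners and CREB. Their mRNAs are mostly short-lived, and several encode transcription factors or feedback inhibitors of the same pathways.

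In both fractions, every knockdown library lay above every control library for 4 of the 10 members, EGR1, FOS, IER2 and DUSP1, beside 0.537% of all tested genes. Their promoters are shown for this shared pattern and because binding sites for the signal-responsive factors are a defining feature of the class. Each line gives the 250 bases before the annotated start, from RefSeq (GRCh38.p14), 5′ to 3′, with CArG boxes (the site bound by SRF), CRE sites (TGACGTCA, bound by CREB and related factors) and AP-1 sites (TGACTCA) in capitals. The table held a promoter for 7 of the 10 members.
EGR1 (chr5:138465229-138465478, plus strand): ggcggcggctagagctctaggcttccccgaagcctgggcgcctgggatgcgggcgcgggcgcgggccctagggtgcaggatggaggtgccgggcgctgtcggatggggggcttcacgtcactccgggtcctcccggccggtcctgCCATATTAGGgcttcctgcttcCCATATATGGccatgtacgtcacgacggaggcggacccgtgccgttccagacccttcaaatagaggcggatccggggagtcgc
FOS (chr14:75278578-75278827, plus strand): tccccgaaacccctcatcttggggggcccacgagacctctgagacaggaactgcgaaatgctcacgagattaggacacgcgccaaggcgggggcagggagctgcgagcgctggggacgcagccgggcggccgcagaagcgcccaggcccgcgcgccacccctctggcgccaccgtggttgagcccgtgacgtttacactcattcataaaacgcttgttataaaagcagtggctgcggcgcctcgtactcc
IER2 (chr19:13150161-13150410, plus strand): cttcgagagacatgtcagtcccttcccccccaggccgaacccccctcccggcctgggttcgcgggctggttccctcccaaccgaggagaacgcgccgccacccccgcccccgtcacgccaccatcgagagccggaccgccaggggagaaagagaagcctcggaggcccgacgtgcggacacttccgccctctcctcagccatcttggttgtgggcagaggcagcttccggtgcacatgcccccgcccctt
DUSP1 (chr5:172771196-172771445, minus strand): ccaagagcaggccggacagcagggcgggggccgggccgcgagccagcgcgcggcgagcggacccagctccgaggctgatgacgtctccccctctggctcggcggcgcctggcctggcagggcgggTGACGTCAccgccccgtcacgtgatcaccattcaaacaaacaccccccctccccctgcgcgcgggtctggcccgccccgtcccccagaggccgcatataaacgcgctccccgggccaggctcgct

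EGR1 carried 2 CArG boxes, CCATATTAGG with its first base at -105 and CCATATATGG at -83, counted from the start site. A CArG box on either strand was found in 1.14% of the 27305 promoters searched over the same length, and EGR1 was the 1 member of 7 with a match. DUSP1 carried a CRE at -125, as did 1.77% of all promoters. An AP-1 site was found in 0 of the 7 members and in 4.16% of all promoters. FOS and IER2 had none of these letters in the window printed. Only these forms of the sites were searched, so variants and sites outside the window were not counted. The FOS window holds TGACGTTT and that of JUN holds TGACATCA, and neither counted as a match. A member without a match may thus still carry such a site. These matches describe the sequence and are not evidence of binding in these cells.

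The libraries differed in ways that the groups do not explain. Every library summed to 1000000 TPM within 0.54, and the read depth is unknown. Across genes, siCtrl input 1, siEIF3G input 2 and siEIF3G polysomal 3 correlated more closely with the other fraction of the same siRNA than with their own group. A single axis took up 78.0% of the spread within groups. EIF3G, the target, fell to 6.16% of control in input and to 6.38% on polysomes, a log2 change of -4.03 and -4.02 (limma adjusted p = 3.707e-05 and 3.761e-05). Of the markers of H1299, VIM ranged from 265 to 3105 TPM and KRT18 from 435 to 1934 TPM. Of markers of other cell types, ALB (hepatocytes) reached at most 0.07 TPM and PECAM1 (endothelium) at most 0.1 TPM in any library. MBP was at 0.61 to 5.42 TPM, ACTA2 at 2.69 to 9.23 TPM and CD68 at 59.0 to 132 TPM. TPM are shares of a library, so a loss of all mRNAs alike leaves them as they are. In such bulk samples, fewer cells that express a gene and less RNA per cell cannot be told apart.

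The members spanned a wide range of levels. In siCtrl input RNA, FOSL1 was the most abundant at 357 ± 30.6 TPM (SD, n = 3), followed by IER2 at 128 ± 14.9 TPM (SD, n = 3), and the libraries of the 2 genes did not overlap. JUNB, MYC and IER3 came next at 42.2, 41.1 and 36.8 TPM, and these neighbours overlapped. DUSP1, ZFP36 and JUN formed a lower tier at 13.3, 12.01 and 10.5 TPM, again overlapping. EGR1 at 4.56 TPM and FOS at 2.53 TPM were the least abundant and overlapped each other. Summed over the 10 members, the level was 551 to 705 TPM in siCtrl input and 814 to 1311 TPM in siEIF3G input. On polysomes the sum was 841 to 892 TPM in control and 1071 to 1393 TPM in knockdown cells, with no overlap in either fraction.

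**Figure D1:**
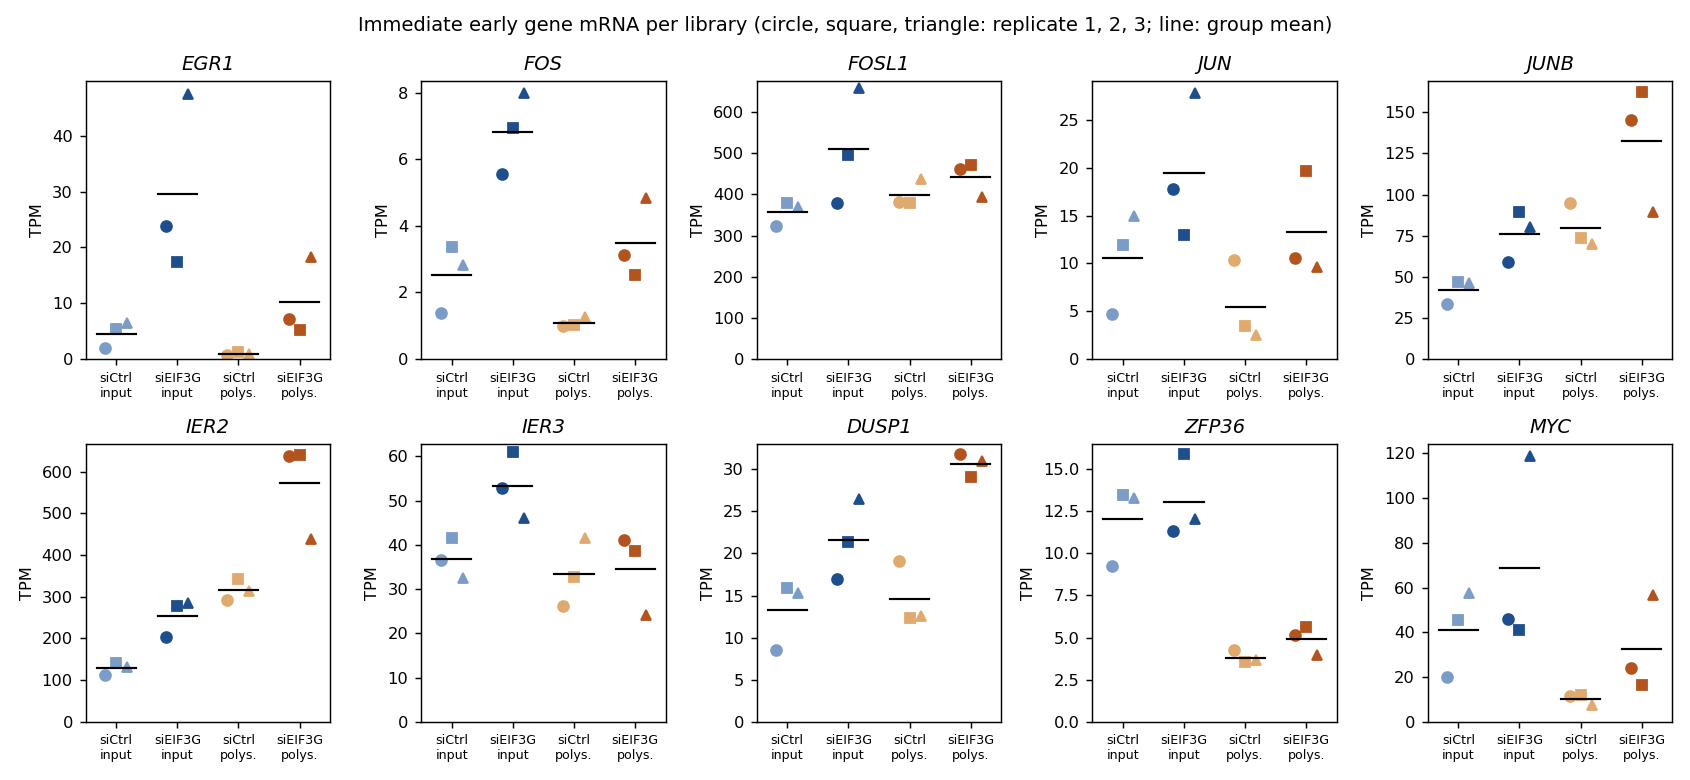
TPM of each immediate early gene in the 12 libraries, 1 panel a gene, with libraries grouped by siRNA and fraction; circles, squares and triangles are replicates 1, 2 and 3, and lines are group means. EGR1, FOS, IER2 and DUSP1 show no overlap between knockdown and control in either fraction.

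EGR1 encodes a zinc finger transcription factor that is among the first genes switched on by ERK signalling. In input RNA it was at 1.98, 5.31 and 6.38 TPM in the control libraries 1 to 3 and at 23.8, 17.5 and 47.5 TPM in the knockdown libraries. All 3 knockdown libraries were high, the lowest of them above the highest control. On polysomes it was at 0.65, 1.33 and 0.87 TPM in control and at 7.14, 5.24 and 18.3 TPM in knockdown libraries. The groups again did not overlap, and siEIF3G polysomal 3 was the highest. The ratio of group means was 6.49 in input and 10.8 on polysomes. On the log2(TPM + 1) scale the change was 2.44 in input (SE 0.52, limma adjusted p = 0.672) and 2.36 on polysomes (SE 0.52, limma adjusted p = 0.65), neither past the threshold of 0.05. The input value was the highest log2 change of all 10605 genes, and the polysomal value ranked 4. EGR1 passed in input after scaling by median-of-ratios size factors (2.39, adjusted p = 0.0241) or by quantile normalization (2.78, adjusted p = 0.00739). It also passed when the 3 libraries named above were left out (2.34, adjusted p = 0.0444), an alternative chosen after seeing the data. Over its 23 alternatives the adjusted p in input ran from 0.00739 to 1. On polysomes it ran from 0.0516 to 1.00, with 0 of 23 past the threshold.

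FOS encodes the partner of the JUN proteins in the AP-1 transcription factor and is the best-known immediate early gene. In input RNA it was at 1.39, 3.37 and 2.82 TPM in control and at 5.55, 6.93 and 8.0 TPM in knockdown libraries. Its polysomal levels were 0.99, 1.01 and 1.25 TPM in control and 3.13, 2.51 and 4.85 TPM in knockdown libraries. FOS was low throughout, yet the groups did not overlap in either fraction. Its log2 change was 1.18 in input (SE 0.36, limma adjusted p = 1) and 1.08 on polysomes (SE 0.36, limma adjusted p = 0.65). EGR1 and FOS were the 2 members whose knockdown libraries lay above all controls in both fractions as deposited and under each scaling. Leaving libraries out cannot end a separation that holds with all of them, so those alternatives do not test it.

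FOSL1 encodes FRA1, a stable relative of FOS that accumulates in cells with lasting ERK activity. It was at 323, 380 and 369 TPM in control input and at 379, 496 and 659 TPM in knockdown input, where the lowest knockdown library lay just under the highest control. On polysomes control libraries were at 382, 378 and 437 TPM and knockdown libraries at 461, 473 and 394 TPM, so the groups overlapped. The log2 change was 0.48 in input (SE 0.22, limma adjusted p = 1) and 0.15 on polysomes (SE 0.22, limma adjusted p = 0.74). Relative to the median of all genes, the polysomal value was -0.19.

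JUN and JUNB encode partners of FOS in AP-1. JUN was at 4.73, 11.97 and 14.9 TPM in control input and at 17.8, 12.9 and 27.8 TPM in knockdown input. On polysomes it was at 10.3, 3.45 and 2.56 TPM in control and at 10.6, 19.7 and 9.58 TPM in knockdown libraries. The groups overlapped on polysomes, where siCtrl polysomal 1 at 10.3 TPM lay above siEIF3G polysomal 3 at 9.58 TPM. Without either of these libraries they did not overlap. The log2 change of JUN was 0.89 in input (SE 0.53, limma adjusted p = 1) and 1.27 on polysomes (SE 0.53, limma adjusted p = 0.65).

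JUNB was at 33.6, 46.9 and 46.2 TPM in control input and at 58.9, 89.2 and 80.4 TPM in knockdown input, with no overlap. On polysomes the controls were at 94.8, 73.7 and 70.0 TPM and the knockdown libraries at 145, 163 and 89.7 TPM. There siEIF3G polysomal 3 lay below the highest control. The log2 change of JUNB was 0.83 in input (SE 0.29, limma adjusted p = 1) and 0.70 on polysomes (SE 0.29, limma adjusted p = 0.65).

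IER2 encodes a small nuclear protein of the immediate early response, and it was the most abundant of the separated members. It was at 112, 141 and 132 TPM in control input and at 202, 277 and 285 TPM in knockdown input. Polysomal levels were 291, 342 and 315 TPM in control and 638, 641 and 439 TPM in knockdown libraries. Each knockdown library was thus above every control, by group means 1.98 times in input and 1.81 times on polysomes. The log2 change was 0.97 in input (SE 0.23, limma adjusted p = 0.914) and 0.84 on polysomes (SE 0.23, limma adjusted p = 0.65), and IER2 did not pass under any of the 23 alternatives in either fraction. With size factors the groups of IER2 overlapped in both fractions, and its polysomal log2 change was 0.29.

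IER3 encodes a stress-inducible regulator of survival signalling. In input RNA it was at 36.5, 41.5 and 32.5 TPM in control and at 52.8, 61.0 and 46.1 TPM in knockdown libraries, with no overlap. On polysomes control libraries were at 26.1, 32.7 and 41.5 TPM and knockdown libraries at 41.1, 38.6 and 24.1 TPM. The polysomal groups covered the same range. The log2 change was 0.52 in input (SE 0.29, limma adjusted p = 1) and 0.04 on polysomes (SE 0.29, limma adjusted p = 0.94).

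DUSP1 and ZFP36 act as brakes on the response: DUSP1 is a phosphatase that switches off MAP kinases, and ZFP36 (tristetraprolin) binds AU-rich elements and promotes decay of the mRNAs that carry them. DUSP1 was at 8.57, 15.9 and 15.3 TPM in control input and at 17.0, 21.3 and 26.5 TPM in knockdown input. In polysomal RNA it was at 19.1, 12.3 and 12.5 TPM in control and at 31.9, 29.1 and 30.9 TPM in knockdown libraries, a narrow range well above the controls. The log2 change was 0.69 in input (SE 0.33, limma adjusted p = 1) and 1.04 on polysomes (SE 0.33, limma adjusted p = 0.65). With size factors the groups of DUSP1 overlapped in both fractions.

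ZFP36 was the member closest to no difference in input. It was at 9.25, 13.5 and 13.3 TPM in control input and at 11.3, 15.9 and 12.04 TPM in knockdown input. On polysomes it was at 4.24, 3.52 and 3.68 TPM in control and at 5.18, 5.65 and 3.96 TPM in knockdown libraries. The groups overlapped in both fractions. The log2 change was 0.12 in input (SE 0.33, limma adjusted p = 1) and 0.29 on polysomes (SE 0.33, limma adjusted p = 0.693). Its 95% interval in input ran from -0.60 to 0.83, so a change of up to that size was not excluded by the spread.

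MYC encodes the growth-promoting transcription factor c-MYC, a delayed member of the class. In input RNA it was at 20.0, 45.7 and 57.7 TPM in control and at 46.1, 41.3 and 119 TPM in knockdown libraries, and the groups overlapped. In polysomal RNA it was at 11.4, 11.8 and 7.47 TPM in control and at 23.8, 16.5 and 56.7 TPM in knockdown libraries, with no overlap. The log2 change was 0.68 in input (SE 0.53, limma adjusted p = 1) and 1.41 on polysomes (SE 0.53, limma adjusted p = 0.65). Both fractions had one knockdown library far above the other two, replicate 3, the same libraries in which EGR1 was highest.

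Across the members, all 10 had a positive log2 change in each fraction as deposited, beside 42.9% of all tested genes in input and 72.6% on polysomes. The member median was 0.76 in input, where the median of all genes was -0.05. On polysomes the member median was 0.94 and that of all genes 0.33. There 7 of 10 members stood above the median of all genes, and FOSL1, IER3 and ZFP36 stood below it. The polysomal median of all genes moved to -0.03 with size factors and to 0.03 with quantile normalization. Under these scalings FOSL1 (size factors only), IER3 and ZFP36 turned negative on polysomes, and the other members stayed positive. In input all 10 stayed positive under both scalings.

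No member passed limma's adjusted p in either fraction, where 0.0189% of all tested genes did, all lower with siEIF3G. At an unadjusted p under 0.05 and higher with siEIF3G were 5 of 10 members in input (EGR1, FOS, FOSL1, JUNB and IER2), beside 0.443% of all tested genes. On polysomes there were 7 (EGR1, FOS, JUN, JUNB, IER2, DUSP1 and MYC), beside 4.2% of all tested genes. Groups did not overlap, with knockdown higher, for 6 members in input (EGR1, FOS, JUNB, IER2, IER3 and DUSP1), beside 1.88% of all tested genes. On polysomes this held for 5 members (EGR1, FOS, IER2, DUSP1 and MYC), beside 21.6% of all tested genes. The members were chosen with earlier results of these data known, so these shares describe the list and do not test it. With size factors the count of separated members was 3 in input (EGR1, FOS and JUN), beside 3.26% of all tested genes, and 3 on polysomes (EGR1, FOS and MYC), beside 9.77%. With quantile normalization it was 7 in input, beside 4.05% of all tested genes, and 7 on polysomes, beside 11.6%. On polysomes it was 8 without siCtrl polysomal 1, beside 33.0%, and 9 without siEIF3G polysomal 3, beside 25.5%. Leaving a library out can keep or raise such a count of members but cannot lower it.

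**Figure D2:**
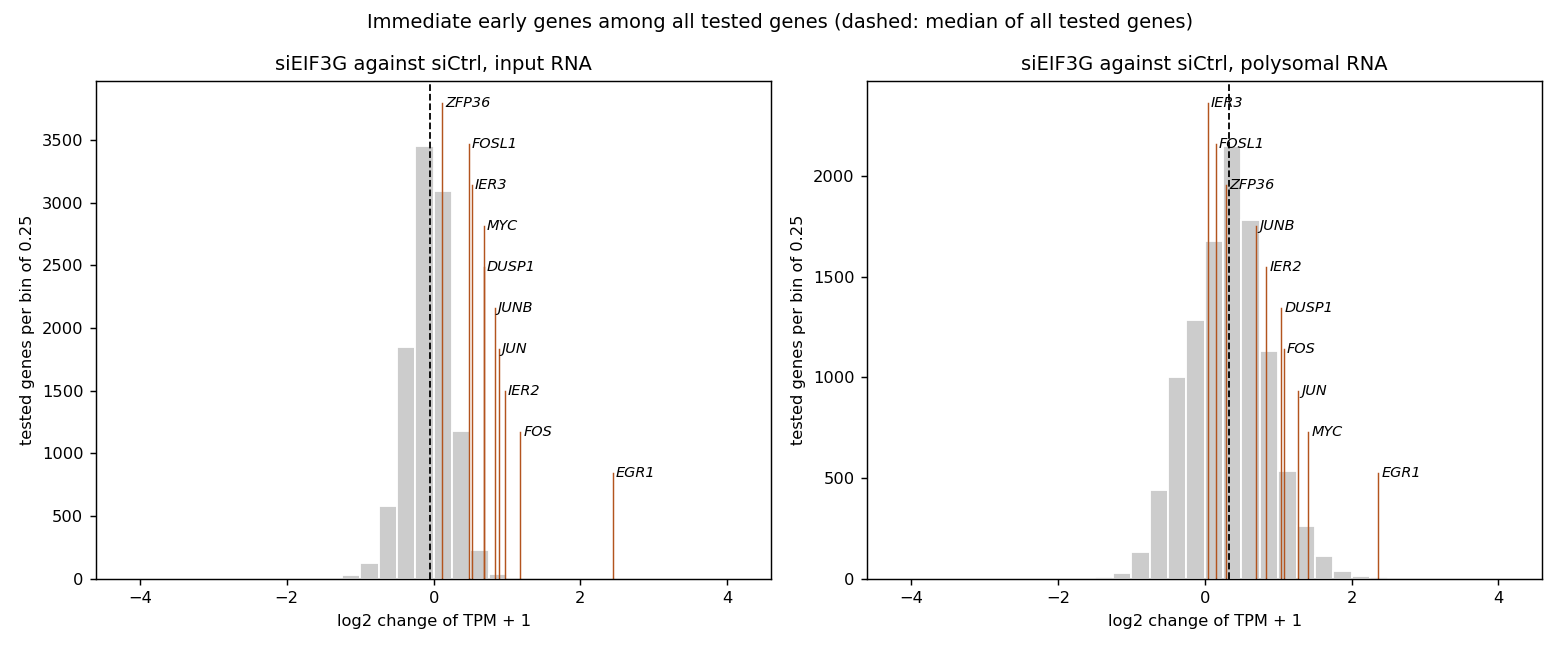
Histogram of the log2 change of TPM + 1, siEIF3G against siCtrl, over the 10605 tested genes (vertical axis: genes per bin of 0.25) in input and polysomal RNA, with the 10 members as labelled lines and the median of all genes dashed. In input all 10 lines lie above the dashed median of -0.05; on polysomes 7 lie above the median of 0.33.

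The main comparison asked whether the knockdown effect on polysomes differed from that in input, which would mark a change of polysome association beyond that of the mRNA level. The difference of the effects (polysomal minus input, the interaction of siRNA and fraction) passed limma's adjusted p for 0 of the 10 members and for 0% of all tested genes. At an unadjusted p under 0.05 were 0 members, beside 0.179% of all tested genes. The nearest to 0 was EGR1 at -0.08 (95% interval -1.68 to 1.52, limma adjusted p = 0.98), and its interval was among the widest. The intervals were narrowest for FOSL1 (-0.34, from -1.01 to 0.34) and IER2 (-0.14, from -0.83 to 0.56). The remaining values were -0.10 for FOS (-1.19 to 0.98), -0.13 for JUNB (-1.01 to 0.74) and -0.48 for IER3 (-1.36 to 0.40). JUN was at 0.38 (-1.23 to 2.0), DUSP1 at 0.35 (-0.65 to 1.35), ZFP36 at 0.18 (-0.84 to 1.19) and MYC at 0.73 (-0.88 to 2.33).

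Above 0 were 4 of 10 members (JUN, DUSP1, ZFP36 and MYC), beside 73.9% of all tested genes. The median of all genes was 0.38 in the deposited values, -0.03 by size factors and 0.02 by quantile normalization. For the members it was -0.09, -0.32 and -0.35 in the same order. Set against all genes, the members' median was thus -0.47 as deposited, -0.29 by size factors and -0.37 by quantile normalization. Only MYC and JUN lay above the median of all genes as deposited, JUN by less than 0.01, and with either scaling MYC was the 1 member above it. The members' value shares its libraries with both knockdown effects. Leaving out siEIF3G polysomal 3 moved the relative median to -0.17, leaving out siEIF3G input 2 to -0.20 and leaving out siCtrl input 3 to -0.30. With each library left out in turn it ran from -0.64 to -0.17, and with the 3 named libraries left out it was -0.12.

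The pseudocount bears on this comparison for the lowest members. EGR1 in control polysomes was near 1 TPM, the size of the pseudocount, so the log scale understates its change there. With a pseudocount of 0.1 the EGR1 change was 2.70 in input and 3.14 on polysomes, and the difference turned from -0.08 to 0.44 (limma adjusted p = 0.897). That of FOS turned from -0.10 to 0.09 (limma adjusted p = 0.972).

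**Figure D3:**
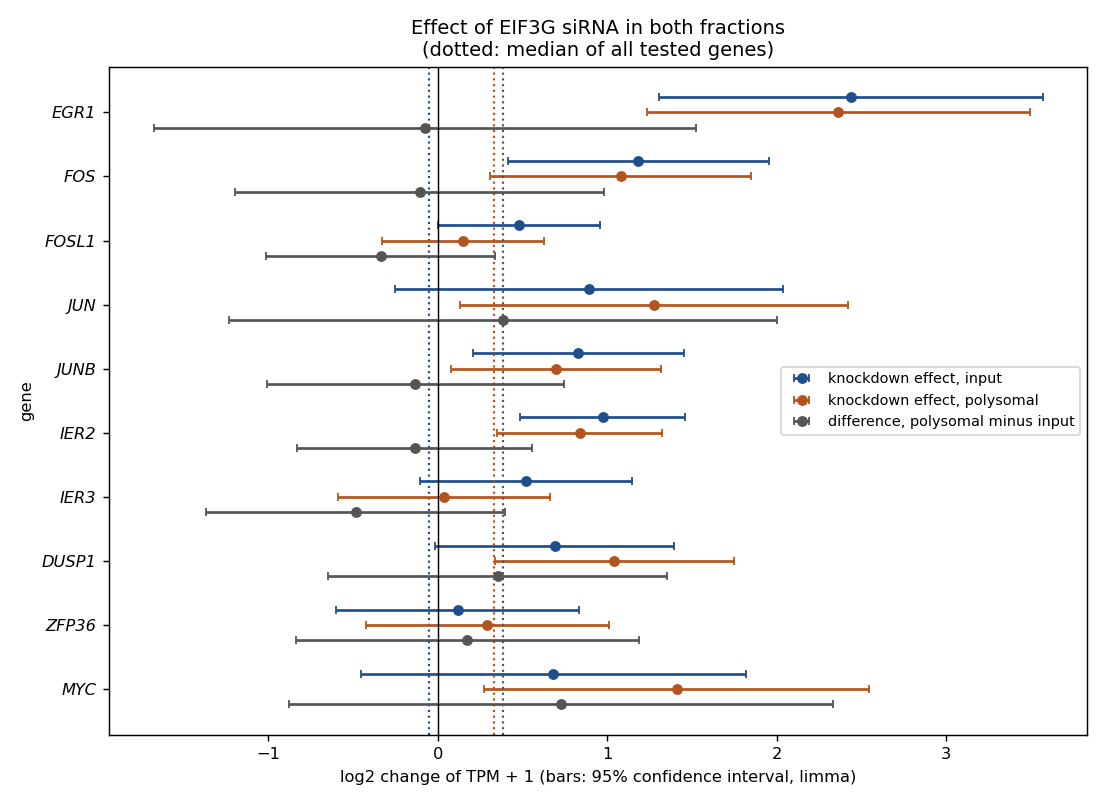
Log2 change of TPM + 1 with 95% confidence intervals from limma for each member: knockdown against control in input, the same on polysomes, and the difference of these effects; dotted lines are the medians of all tested genes. The interval of the difference includes 0 for all 10 members.

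Polysomal against input RNA within each siRNA group shows how far each mRNA was represented on polysomes, as a share of the library. In control cells 5 of 10 members passed, 2 higher on polysomes and 3 lower, beside 7.98% and 28.9% of all tested genes. IER2 was higher on polysomes, with a log2 difference of 1.3 (SE 0.23, limma adjusted p = 0.00737), from 112 to 141 TPM in input and from 291 to 342 TPM on polysomes. JUNB was higher as well, at 0.90 (SE 0.29, limma adjusted p = 0.0408). Both lay above input in every polysomal library of both siRNA groups, beside 7.2% of all tested genes.

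Lower on polysomes in control cells were MYC at -1.81 (SE 0.53, limma adjusted p = 0.0352), ZFP36 at -1.42 (SE 0.33, limma adjusted p = 0.021) and EGR1 at -1.42 (SE 0.52, limma adjusted p = 0.0491). By group means, polysomal levels were 24.8% of input for MYC, 31.8% for ZFP36 and 20.8% for EGR1. All genes had a median of -0.96 in this comparison, -0.10 with size factors and -0.13 with quantile normalization. Against it IER2 was at 2.26, JUNB at 1.87, MYC at -0.84, ZFP36 at -0.46 and EGR1 at -0.46. The ZFP36 and EGR1 calls were lost with size factors (adjusted p = 0.298 and 0.0829) and with quantile normalization (0.537 and 0.508), and the MYC call with size factors (0.0976). IER2 and JUNB passed under both scalings. DUSP1, at 0.15 as deposited, passed under both (1.18 and 0.94), and FOSL1, at 0.16, passed with size factors (1.26) and was at -0.05 with quantile normalization.

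Leaving out single libraries ended most of these calls, and calls over all genes went with them. Over all tested genes 36.9% passed with 12 libraries, and 1.22% to 2.54% without siCtrl input 2 or 3 or any of the siCtrl polysomal libraries. The calls of EGR1, JUNB, ZFP36 and MYC all ended without siCtrl input 2 (adjusted p = 0.152, 0.119, 0.0997 and 0.127), siCtrl input 3 (0.19, 0.123, 0.0887 and 0.145), siCtrl polysomal 1 (0.112, 0.101, 0.0623 and 0.0819), siCtrl polysomal 2 (0.073, 0.0699, 0.0689 and 0.0689) or siCtrl polysomal 3 (0.135, 0.11, 0.0795 and 0.118). The IER2 call ended without siCtrl polysomal 2 (adjusted p = 0.0509). Without siEIF3G polysomal 1 EGR1, JUNB and MYC did not pass (0.0662, 0.0584 and 0.0522), without siEIF3G polysomal 2 EGR1 and JUNB (0.0574 and 0.0512), and without siEIF3G input 1 or 3 EGR1 (0.0591 and 0.0526). FOS (-0.97, adjusted p = 0.0183) and JUN (-1.35, adjusted p = 0.0315) passed without siCtrl input 1, where 7 of 10 members passed beside 67.9% of all tested genes.

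In knockdown cells 1 of 10 members passed, IER2 at 1.16 (SE 0.23, limma adjusted p = 0.0173), beside 1.81% of all tested genes higher and 1.33% lower. ZFP36 was at -1.24 (SE 0.33, limma adjusted p = 0.0624) and EGR1 at -1.50 (SE 0.52, limma adjusted p = 0.139), both lower on polysomes. JUNB was at 0.77 and MYC at -1.08, neither past the threshold. The IER2 call ended with size factors (1.71, adjusted p = 0.0871), with no variance trend, with only the groups compared, and without siEIF3G input 1 (0.0989), siEIF3G polysomal 1 (0.119) or siEIF3G polysomal 2 (0.0991). ZFP36 passed with no variance trend (0.0491), at a mean of 5 TPM or more (0.0447) and without siCtrl input 1 (0.0264), and EGR1 (0.0441) and JUNB (0.0425) without siEIF3G polysomal 3. With the 3 named libraries left out 6 of 10 members passed, beside 71.3% of all tested genes, and these were EGR1, FOS, ZFP36 and MYC (lower on polysomes) and JUNB and IER2 (higher). Polysomal levels by group means were 34.6% of input for EGR1, 47.1% for MYC and 37.7% for ZFP36 in knockdown cells. These are ratios of group means, with no test, and are not the difference on the log2(TPM + 1) scale tested above.

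**Figure D4:**
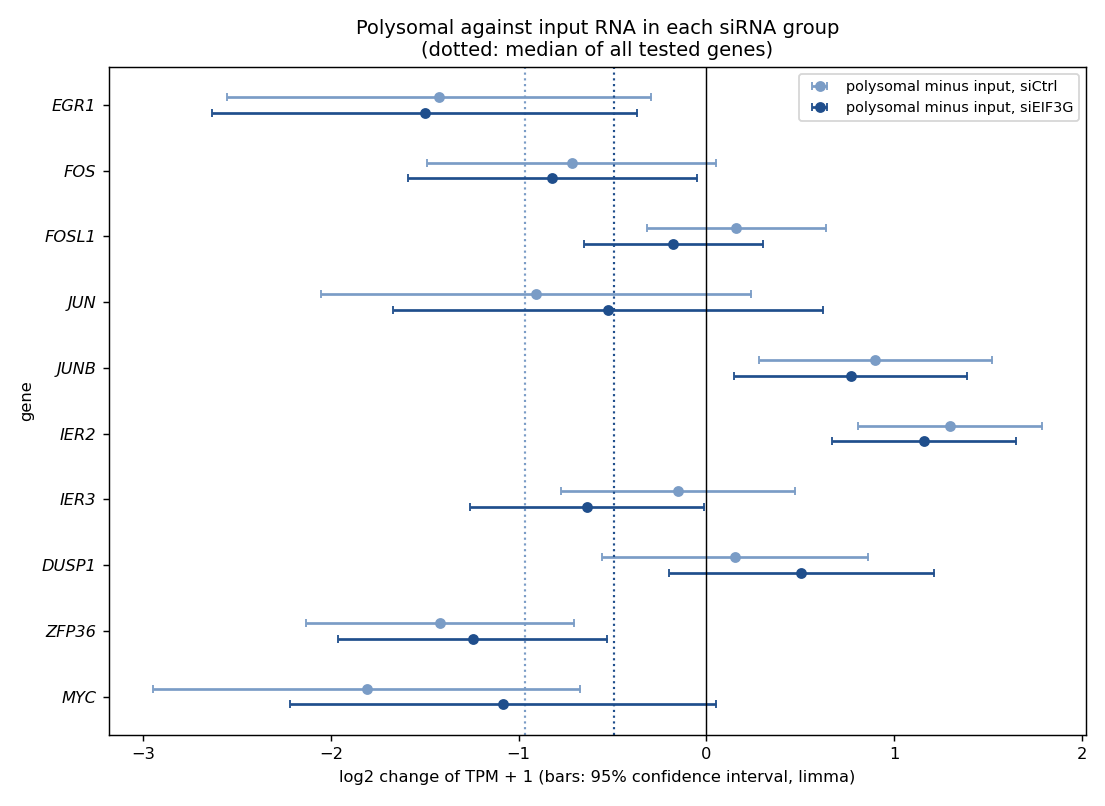
Log2 difference of TPM + 1 between polysomal and input RNA with 95% confidence intervals from limma, for each member in siCtrl and siEIF3G cells; dotted lines are the medians of all tested genes (-0.96 in siCtrl and -0.49 in siEIF3G). IER2 and JUNB lie to the right of 0 in both siRNA groups, and EGR1 and ZFP36 to the left.

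The members fell into different patterns of variation between libraries of one group. The deviations of EGR1 and MYC from their group means moved together (Pearson r = 0.959 over 12 libraries), as did those of EGR1 and FOS (r = 0.827). Those of JUNB and ZFP36 (r = 0.888) and of JUNB and IER2 (r = 0.806) also did. EGR1 and MYC, by contrast, deviated against IER3 (r = -0.580 and -0.689). Along the first axis of library variation the deviations of EGR1 had r = 0.830 and those of MYC r = 0.814, while IER2, JUNB, FOSL1 and ZFP36 lay between -0.09 and 0.06. These correlations are descriptions over 12 libraries that share the same groups. Their part in the knockdown effects was not tested. In siCtrl input 1, 9 of the 10 members had their lowest value of the group, IER3 being the exception. In siEIF3G input 3, 7 members had their highest.

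By likeness over the 12 libraries, on the log2(TPM + 1) scale among 7252 genes averaging 5 TPM or more, the genes closest to EGR1 were IFRD1 (r = 0.937), HES1 (0.934), DDIT3 (0.921), FAM86B2 (0.919) and H2AC6 (0.913). DDIT3, a transcription factor induced by stress, averaged 32.03 TPM in control against 109 TPM in knockdown input, with 15.03 against 60.4 TPM on polysomes. It was picked for following EGR1 over these same 12 libraries, so its group means are not a separate result. FOS was closest to HES1 (0.937), SMIM3 (0.930), FAM86B2 (0.924), CMTM8 (0.909) and RHOB (0.905). FAM86B2 belongs to a family of near copies that may share reads. IER2 was closest to ZNF48, DBN1, PRKAR1B, DPH1 and HES7, with r from 0.964 to 0.969.

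Of 43 other immediate early genes on a second list 42 were in the table and 33 were tested, and 0 passed limma's adjusted p in either fraction. In input 20 of 33 were positive, beside 42.9% of all tested genes, with a median of 0.17 against -0.05. Groups did not overlap for 3, all higher with siEIF3G, beside 1.88% of all tested genes. On polysomes 23 of 33 were positive, beside 72.6% of all tested genes, with a median of 0.33, equal to that of all genes. There groups did not overlap for 11 with knockdown higher and 3 with knockdown lower, beside 21.6% and 7.61% of all tested genes. RHOB, a small GTPase of the cytoskeleton, averaged 12.8 TPM in control against 21.9 TPM in knockdown input and 8.38 against 17.6 TPM on polysomes, with no overlap in either fraction. PLK2, a kinase of the stress response, averaged 2.22 TPM in control against 11.5 TPM in knockdown polysomes. SGK1, a serum-inducible kinase, averaged 4.75 against 13.3 TPM there. Unlike RHOB, PLK2 and SGK1 had no overlap on polysomes only, and their groups overlapped in input. GADD45B, a stress sensor, lay the other way on polysomes, at 198 TPM in control against 124 TPM in knockdown libraries, a log2 change of -0.68 (SE 0.24, limma adjusted p = 0.65).

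Feedback and target genes of ERK were positive in 14 of 17 tested members in input (median 0.30) and in 16 of 17 on polysomes (median 0.82), and 0 passed. DUSP5, a nuclear phosphatase of ERK, averaged 19.2 TPM in control against 48.5 TPM in knockdown input, and 17.4 against 43.7 TPM on polysomes, with no overlap in either. Its log2 change was 1.32 in input (SE 0.37, limma adjusted p = 1) and 1.29 on polysomes (SE 0.37, limma adjusted p = 0.65). DUSP2, a related phosphatase, was at 3.63 and 7.61 TPM in input and at 3.74 and 7.74 TPM on polysomes, likewise separated. SPRY4, an inhibitor of receptor signalling, averaged 4.38 TPM in control against 13.6 TPM in knockdown polysomes, and PHLDA1 29.6 against 61.8 TPM. Both had no overlap there and overlap in input. Of the 17 tested, groups did not overlap with knockdown higher for 3 in input, beside 1.88% of all tested genes. On polysomes they did not overlap for 5 with knockdown higher and 1 lower, beside 21.6% and 7.61%.

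The genes upstream showed no common direction in input. Of 20 kinases and receptors of the ERK and stress cascade 10 were positive in input and 13 on polysomes, with medians of -0.01 and 0.47. For all tested genes the shares were 42.9% and 72.6%, with medians of -0.05 and 0.33. HRAS, a small GTPase at the head of the cascade, averaged 166 TPM in control against 69.2 TPM in knockdown input, and 166 against 70.0 TPM on polysomes, with no overlap in either. Its log2 change was -1.26 in input (SE 0.27, limma adjusted p = 0.672) and -1.24 on polysomes (SE 0.27, limma adjusted p = 0.65). Of the 20, groups in input did not overlap for 0 with knockdown higher, beside 1.88% of all tested genes. With knockdown lower they did not overlap for 1 (HRAS), and the share of all tested genes in that direction is not given here. On polysomes they did not overlap for 3 with knockdown higher and 4 lower, beside 21.6% and 7.61%. Of 10 tested SRF, ternary complex and CREB factors, 6 were positive in input (median 0.06) and 8 on polysomes (median 0.48). Groups overlapped for all 10 in input, where 1.88% of all tested genes were separated with knockdown higher. On polysomes 2 of the 10 were, beside 21.6%.

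AP-1 partners were positive in 7 of 10 tested genes in input (median 0.16) and on polysomes (median 0.15), and 3 of 10 lay above the median of all genes on polysomes. The lists share genes: several AP-1 partners, such as JUND, FOSL2 and ATF3, and also SRF, are on the list of other immediate early genes as well. JUND, a partner of FOS, averaged 79.0 TPM in control against 95.5 TPM in knockdown input, and 122 against 92.4 TPM on polysomes, with overlap in both fractions. In the MYC network 5 of 7 tested genes were positive in input and 3 on polysomes. MXD3, a MAX partner that opposes MYC, was at 69.5 and 33.5 TPM in input and at 70.9 and 31.2 TPM on polysomes, lower in every knockdown library of both fractions (log2 change -1.02 and -1.16, limma adjusted p = 1 and 0.65). Of the 7, groups on polysomes did not overlap for 1 with knockdown higher and 1 lower, beside 21.6% and 7.61% of all tested genes. Factors that bind AU-rich elements or carry out decay were positive in 7 of 14 in input (median 0.03) and in 14 of 14 on polysomes (median 0.84). All tested genes were positive in 42.9% in input (median -0.05) and in 72.6% on polysomes (median 0.33). Among the 14 factors ZFP36L1, a relative of ZFP36, averaged 4.08 TPM in control against 11.5 TPM in knockdown polysomes, with no overlap there and overlap in input. On polysomes 4 of the 14 were separated with knockdown higher, beside 21.6% of all tested genes. The 10 reference genes had medians of 0.15 in input and 0.52 on polysomes, and in these lists 0 genes passed limma's adjusted p.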

How the data were processed

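RNA of 12 libraries of H1299 cells was compared in 4 groups of 3. The deposited values are TPM per gene and library, which the authors computed; per the submitters' processing notes RSEM 1.3.1 and the build GRCh38.p13 were used. No aligner, annotation or filter is named in what was used here. TPM keep no read depth, so no counting interval was computed.

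Here values were taken as log2(TPM + 1), without rescaling. Genes averaging 1 TPM or more were kept (10605, with 5567 set aside). A model of 4 group means was fitted to all 12 libraries in limma 3.58.1 (R 4.3.3), letting the prior variance follow the mean, with 8 residual degrees of freedom. The Benjamini-Hochberg adjustment ran over every tested gene, and the threshold was 0.05. The 5 comparisons were the knockdown effect in each fraction, their difference, and polysomal against input RNA under each siRNA. The fit was run on simulated data with the same spread for every gene and no differences shared across a library. That run checks the code and not how well the model suits these libraries. The members and lists were chosen with earlier results of these data known. All members are named, with up to 4 genes of each other list, those with the smallest p. Likeness was the highest Pearson correlation with EGR1, FOS or IER2. Alternatives were pseudocounts of 0.1 and 5, no filter or 5 TPM, size factors, quantile normalization, no trend, robust moderation, only the groups compared, a replicate block and each library left out.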

Additional observations from a re-analysis of the deposited data

How the results depend on the processing

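The knockdown effects were not called for any member as deposited (0.0189% of all tested genes in each fraction). In input 1 member, EGR1, was called with size factors (0.0189%), with quantile normalization (0.0189%) and without the 3 libraries that stood apart (0.0465%). The last is an alternative chosen after seeing the data. The cause was not tested. Members whose groups did not overlap numbered 6 in input (1.88% of all tested genes) and 3 with size factors (3.26%). On polysomes they numbered 5 (21.6%), 3 with size factors (9.77%), 9 without the 3 libraries that stood apart (25.5%), and 5 to 9 with single libraries left out (22.3% to 42.2%). Leaving libraries out cannot lower these counts of members. The members' median difference of the effects, relative to all genes, was -0.47 and was -0.12 without the 3 libraries that stood apart.

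For polysomal against input RNA in siCtrl cells, 5 members were called, beside 36.9% of all tested genes. There were 2 with a pseudocount of 5 (13.3%), 2 with no filter on low values (7.77%), 1 with only the groups compared (5.71%), 3 with the replicate block (20.0%), and 0 to 7 with single libraries left out (1.22% to 67.9%). The members' median relative to all genes was 0.53 and was -0.12 with no filter on low values, which adds genes of low level to all genes. In siEIF3G cells 1 member was called, beside 3.14% of all tested genes. There were 2 at a mean of at least 5 TPM (5.85%, FOS not tested), 0 with size factors (0.471%), 0 with only the groups compared (0.741%), 6 without the 3 libraries that stood apart (71.3%), and 0 to 3 with single libraries left out (0.413% to 7.37%). The median relative to all genes was -0.09, 0.47 without the 3 libraries that stood apart, and -0.28 to 0.27 with single libraries left out.

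Signs that turned belonged to values that were not called. The difference of the effects turned for EGR1 (0.44) and FOS (0.087) with a pseudocount of 0.1. With size factors and quantile normalization it turned for JUN (-0.043 and -0.34), DUSP1 (-0.15 and -0.16) and ZFP36 (-0.27 and -0.36). Without the 3 libraries that stood apart it turned for JUNB (0.40) and IER2 (0.21). With single libraries left out it ran from -0.56 to 0.32 for EGR1, -0.31 to 0.15 for FOS, -0.30 to 0.12 for JUNB and -0.29 to 0.045 for IER2. The polysomal knockdown effect turned with size factors for FOSL1 (-0.40), IER3 (-0.50) and ZFP36 (-0.15), and with quantile normalization for IER3 (-0.20) and ZFP36 (-0.21). It ran from -0.12 to 0.27 for IER3 with single libraries left out. The input effect of ZFP36 was -0.18 without the 3 libraries that stood apart and -0.046 to 0.21 with single libraries left out. Polysomal against input RNA in siCtrl cells turned with quantile normalization for FOS (0.36), FOSL1 (-0.048), JUN (0.15) and IER3 (0.20), with size factors for JUN (0.046) and IER3 (0.91), and without the 3 libraries that stood apart for DUSP1 (-0.11). It ran from -0.32 to 0.008 for IER3 and from -0.11 to 0.30 for DUSP1 with single libraries left out. In siEIF3G cells it turned with size factors for FOSL1 (0.38) and JUN (0.004), and ran from -0.37 to 0.026 for FOSL1 with single libraries left out.

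The replicate numbers are shared between groups, but the deviations of same-numbered libraries correlated between -0.689 and 0.712, over 0.1 in 6 of 18 pairs. In 10 of 36 cases a library correlated best with its own number in another group. The labels do not say which input and polysomal libraries share a lysate, and these correlations cannot settle it. The numbers were not used as pairs, so the comparisons between fractions treat all libraries as independent. The replicate block ties a number across all 4 groups and does not model a lysate. With the replicate block 0 members were called for either knockdown effect (0.0189% of all tested genes in each fraction) or their difference (0%). For polysomal against input RNA in siEIF3G cells 1 was called (3.12%). The read depth behind each TPM is unknown, and the values of EGR1 and FOS on control polysomes lie near 1 TPM.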
